A study of Mus musculus with 2 samples.

Results

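The genes described here are 10 genes of glycolysis and of lactate exchange: *Hk1*, *Pfkm*, *Pfkp*, *Aldoa*, *Aldoc*, *Pkm*, *Ldha*, *Ldhb*, *Slc16a1* and *Slc16a3*. They were found by symbol in the gene tables of both libraries, and all 10 of the 10 were present among 23951 symbols shared by the libraries. RNA was taken from P12 mouse optic nerve, and there was 1 library per genotype. The control library is labelled Tcf7l2 c/+; OLig1-cre, so the control mice also carried the Cre driver and 1 floxed allele. The cKO library, the mutant that the study names *Tcf7l2*ΔHMG, is labelled Tcf7l2 c/c; OLig1-cre. Cre under *Olig1* acts in the oligodendrocyte lineage, and the nerve also holds astrocytes, microglia, vessels and meninges, which were sequenced with it. The number of animals per library is not stated.

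Glycolysis splits glucose into pyruvate, and lactate dehydrogenase interconverts pyruvate and lactate. Monocarboxylate transporters carry lactate across the plasma membrane. In white matter, glial cells are known to pass lactate to axons through these transporters, and the oligodendrocyte transporter Slc16a1 (MCT1) is the best known of them. Several steps are run by isoforms from separate genes whose enzymes differ in kinetics and in the cells that make them, so the balance between isoforms was examined beside the level of each gene.

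Expression was measured as FPKM, the fragments of a gene scaled to its transcript length and to the depth of the library, which allows levels to be compared between genes per length. Each value has a Cufflinks confidence interval, which covers the counting and assignment of fragments and not the difference between animals. The control library held 27623500 mapped fragments and the cKO library 39937500, and 3 fragments on 1 kb corresponded to 0.109 FPKM and 0.0751 FPKM, respectively. Among named rows, 7.26% and 8.64% had an FPKM outside their own interval, so the interval is a partial measure of error. The ratio of cKO to control was taken on the log2(FPKM + 0.1) scale, which understates the change of low genes. Genes past a fold change of 1.5, a log2 ratio beyond 0.58, were counted. With 1 library on each side there is no replicate check, and no p-value is given. Ratios also depend on how the libraries are scaled to each other: rows without a gene name took 70.7% of summed FPKM in the control against 80.7% in the cKO, and rescaling all rows to a common sum moved the median log2 ratio of all tested genes from 0.05 to −0.63. The rescaled ratio of each of the 10 genes is given beside the ratio as deposited. Levels and their sums are as deposited and were not rescaled. The targeted gene, *Tcf7l2*, had 17.8 FPKM in the control and 14.6 in the cKO, a log2 ratio of −0.28, but a value for the whole gene does not check the deletion of its DNA-binding exon.

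The largest shifts in isoform balance among the 10 genes were within lactate dehydrogenase and phosphofructokinase. The 250 bases before the start of transcription of both genes of each pair are therefore shown, from RefSeq on GRCm38.p6, a build other than the mm9 of the expression files. Capitals mark ACGTG on either strand (CACGT on the other), the core that hypoxia-inducible factors and Myc-type proteins recognise, and TCAAAG on either strand (CTTTGA on the other), the core recognised by TCF proteins such as Tcf7l2. The palindrome CACGTG holds the first motif on both strands. The windows of *Ldha* (the first of its start sites, chr7:46845554-46845803, plus strand), *Ldhb* (chr6:142507958-142508207, minus strand), *Pfkm* (the first of its start sites, chr15:98092339-98092588, plus strand) and *Pfkp* (chr13:6648772-6649021, minus strand) read as follows.
Ldha: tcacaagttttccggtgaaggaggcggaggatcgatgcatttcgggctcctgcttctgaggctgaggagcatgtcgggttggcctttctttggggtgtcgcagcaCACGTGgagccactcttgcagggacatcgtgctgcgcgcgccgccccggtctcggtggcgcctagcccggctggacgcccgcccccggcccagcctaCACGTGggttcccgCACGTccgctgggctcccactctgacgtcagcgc
Ldhb: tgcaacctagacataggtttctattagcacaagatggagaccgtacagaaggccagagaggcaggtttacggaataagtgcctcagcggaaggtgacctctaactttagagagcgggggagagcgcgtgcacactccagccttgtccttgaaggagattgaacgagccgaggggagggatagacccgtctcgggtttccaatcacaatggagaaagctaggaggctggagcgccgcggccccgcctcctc
Pfkm: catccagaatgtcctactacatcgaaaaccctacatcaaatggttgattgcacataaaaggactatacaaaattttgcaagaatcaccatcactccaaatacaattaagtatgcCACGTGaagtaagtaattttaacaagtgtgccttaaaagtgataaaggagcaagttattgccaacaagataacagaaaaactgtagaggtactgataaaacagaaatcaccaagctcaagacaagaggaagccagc
Pfkp: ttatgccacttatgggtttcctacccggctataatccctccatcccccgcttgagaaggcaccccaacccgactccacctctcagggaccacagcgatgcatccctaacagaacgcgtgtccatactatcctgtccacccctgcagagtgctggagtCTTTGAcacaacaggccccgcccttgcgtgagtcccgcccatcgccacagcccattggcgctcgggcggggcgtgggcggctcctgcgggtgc

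The *Ldha* window held ACGTG 145, 48 and 34 bases before the start, the first and the second of these as the palindrome. The *Pfkm* window held the palindrome 136 bases before the start. Of the other *Pfkm* start sites, site 2 had CACGT 244 bases before it, and sites 3 and 4 had neither motif. At *Ldha* start site 2 the TCF core stood 146 bases before the start, and ACGTG was absent. In the *Pfkp* window the TCF core stood 93 bases before the start, and in the *Ldhb* window neither motif was found. Over the 10 genes, 8 of 19 windows held ACGTG, compared with 16.6% of 32851 windows of the same length, and these 8 came from 6 genes. The windows of *Aldoa* start sites 2 and 3 overlap and hold the same CACGT, which was counted in both. The TCF core was in 3 of 19 windows and 3 genes (*Pfkp*, *Aldoc* and *Ldha*), compared with 13.8% of all windows. The GC box GGGCGG, searched on both strands as a general promoter motif and not capitalised above, was in 8 of 19 windows and 7 genes, compared with 32.7%. These are matches of letters, and binding was not measured in the files analysed here. The percentages are per window, and genes differ in their number of windows, so the gene counts have no matching share to be compared with.

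Lactate dehydrogenase is a tetramer of Ldha and Ldhb subunits. Ldha, the muscle-type subunit, favours the formation of lactate, and Ldhb, the heart-type subunit, favours its use. *Ldhb* (mm9 chromosome 6, 142438769 to 142456463) had 94.6 FPKM in the control (interval 90.8 to 99.4) and 152 FPKM in the cKO (148 to 158). It was 1.6-fold higher in the cKO, with a log2 ratio of 0.68, and the intervals did not overlap, but with all rows rescaled its ratio was 0.01. *Ldha* (chromosome 7, 54101174 to 54110997) had 177 FPKM (172 to 184) and 176 FPKM (172 to 182), a log2 ratio of −0.01 with overlapping intervals. As deposited no difference was detectable at this depth, whereas with all rows rescaled its ratio was −0.68, past the cutoff. The median of all tested genes was −0.63 under that rescaling. A related retrocopy, *Ldhal6b*, had 0.554 FPKM and 0.282 FPKM, so it held few of the reads.

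Within the lactate dehydrogenase pair, the share of *Ldhb* was 34.9% in the control (33.0% to 36.6% from the interval bounds) and 46.3% in the cKO (44.7% to 47.8%). The ratio of *Ldha* to *Ldhb* was 1.87 in the control and 1.16 in the cKO, so *Ldha* remained the higher of the pair in both libraries. The ranges did not overlap. A share within a library does not depend on how the libraries were scaled to each other, unlike the log2 ratio of a single gene. The summed level of the pair was 271 FPKM in the control and 327 in the cKO.

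**Figure D1:**
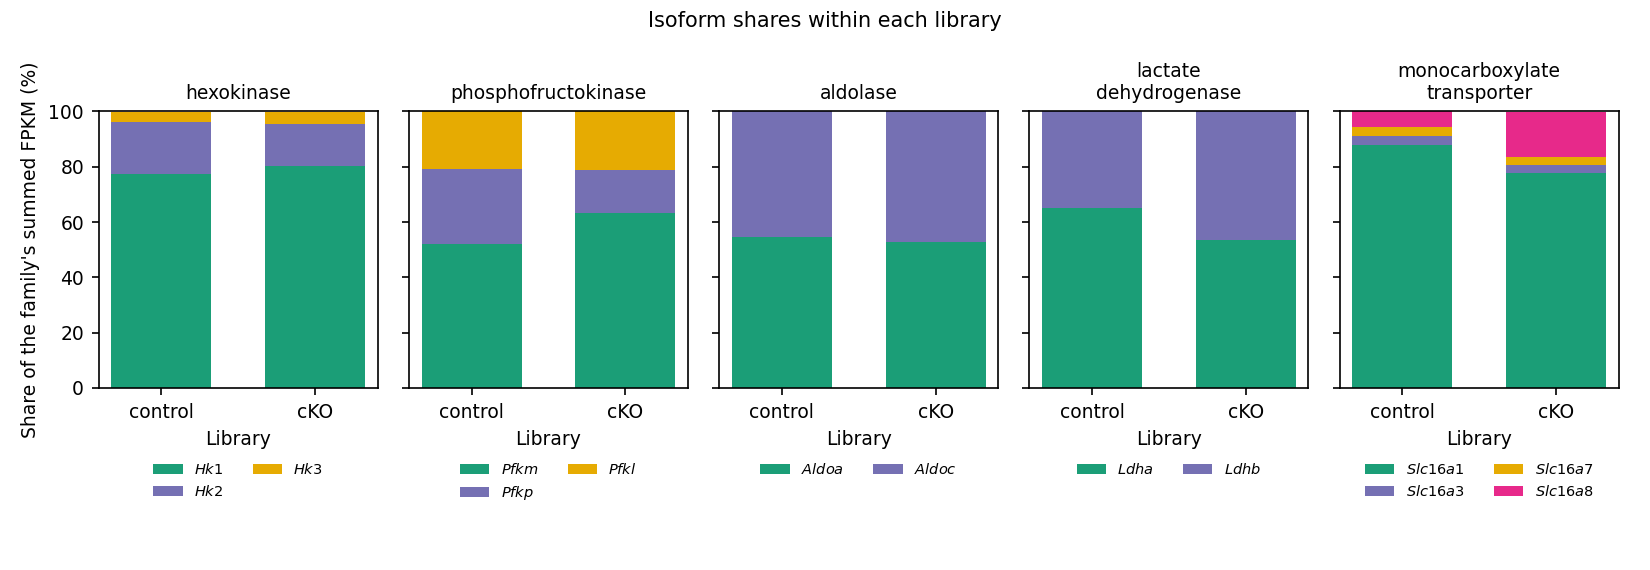
Share of each isoform gene in the summed FPKM of its family (y axis, percent) in the control and the cKO library (x axis), for the hexokinases, phosphofructokinases, aldolases, lactate dehydrogenases and monocarboxylate transporters. *Ldhb* takes 34.9% of its pair in the control and 46.3% in the cKO, *Pfkp* takes 27.4% and 15.7% of its family, and the aldolase pair stays near an equal split.

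Phosphofructokinase commits glucose to glycolysis, and its subunits are named for muscle (Pfkm), platelet (Pfkp) and liver (Pfkl). *Pfkm* (chromosome 15, 97923020 to 97962878) had 39.2 FPKM in the control (37.5 to 41.2) and 54.8 FPKM in the cKO, a log2 ratio of 0.48. The cKO value lay just above its own interval of 50.9 to 54.6, and this interval was apart from that of the control. *Pfkp* (chromosome 13, 6579120 to 6648017) had 20.7 FPKM (19.5 to 21.8) and 13.6 FPKM (12.7 to 14.3). It was 1.52-fold higher in the control, with a log2 ratio of −0.60 just past the cutoff, and the intervals did not overlap. *Pfkl* had 15.6 FPKM and 18.4 FPKM.

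As deposited the subunits differed in direction, whereas with all rows rescaled both were lower in the cKO (−0.19 and −1.26). The ratio of *Pfkm* to *Pfkp* was 1.90 in the control and 4.03 in the cKO. The share of *Pfkm* was 51.9% (49.6% to 55.1%) in the control and 63.1% (60.7% to 64.8%) in the cKO. The share of *Pfkp* was 27.4% (25.4% to 29.7%) and 15.7% (14.8% to 17.4%), whereas that of *Pfkl* was 20.7% and 21.2%. The summed level of the family was 75.5 FPKM and 86.9 FPKM. Inside the *Pfkp* locus the tables also list assembled rows with no gene name, 2 in the control and 8 in the cKO, and whether fragments assigned to them bear on the *Pfkp* value was not tested. The ends of *Pfkp* and *Pitrm1* overlap in the files, as do those of *Pfkm* and *Senp1*, and whether strand was used in counting is not stated.

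Hexokinase starts the pathway by phosphorylating glucose, and Hk1 is the main form of the brain. *Hk1* (chromosome 10, 61731603 to 61842656) had 19.5 FPKM in the control (18.4 to 20.6) and 24.0 FPKM in the cKO (22.7 to 24.7), a log2 ratio of 0.30 with intervals apart, and of −0.37 with all rows rescaled. The antisense gene *Hk1os* lies within this locus, and reads of the pair cannot be told apart without strand. *Hk1* made up 77.3% (74.1% to 80.5%) of the hexokinase FPKM in the control and 80.1% (77.6% to 82.2%) in the cKO, and these ranges overlapped.

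Aldolase splits fructose 1,6-bisphosphate, and Aldoc is the form known from astrocytes. *Aldoa* (chromosome 7, 133938747 to 133943961 in the control) had 260 FPKM (255 to 271) and 365 FPKM (363 to 377), a log2 ratio of 0.49. *Aldoc* (chromosome 11, 78137700 to 78140262) had 218 FPKM (213 to 226) and 325 FPKM (323 to 336), a log2 ratio of 0.58 that fell just short of the cutoff. Both were higher in the cKO with intervals apart, but lower with all rows rescaled (−0.19 and −0.09). They differed between the libraries by nearly the same factor: *Aldoc* took 45.5% (44.1% to 47.0%) of the pair in the control and 47.1% (46.2% to 48.1%) in the cKO. The summed aldolase level, 478 FPKM in the control and 690 in the cKO, had the largest log2 ratio of the isoform families examined, 0.53. The *Aldoa* retrocopy *Aldoart1* had 2.03 FPKM in both libraries.

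*Pkm* (chromosome 9, 59504175 to 59527182) encodes pyruvate kinase, the last step of glycolysis, in forms M1 and M2 that these gene totals do not separate. It had 258 FPKM in the control (255 to 267) and 279 FPKM in the cKO (277 to 288), a log2 ratio of 0.11, and of −0.56 with all rows rescaled. The intervals did not overlap, but the difference was small beside the spread of all genes.

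The transporters were lower in the cKO, neither past the cutoff. With all rows rescaled both were past it (−0.999 and −0.92), as were 7182 of 13208 tested genes downwards. Under the other scalings tried, neither was past it. *Slc16a1* (chromosome 3, 104442587 to 104462385), the oligodendrocyte and endothelial transporter MCT1, had 85.0 FPKM in the control and 67.6 in the cKO (66.5 to 70.0), a log2 ratio of −0.33. The control value lay above its own interval of 79.7 to 84.0, which was apart from that of the cKO. *Slc16a3* (chromosome 11, 120809798 to 120820373 in the control), the transporter MCT4 known from astrocytes, had 3.19 FPKM (2.71 to 3.67) and 2.57 FPKM (2.16 to 2.97), a log2 ratio of −0.30. It was the lowest of the 10 genes, and its intervals overlapped. The ratio of *Slc16a1* to *Slc16a3* was 26.6 in the control and 26.3 in the cKO.

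Mature oligodendrocyte markers were lower along with *Slc16a1*. All 9 of 9 were below the control, 6 of them past the fold of 1.5 (8.52% of all tested genes were past it downwards), and their summed level was 31626 FPKM in the control and 18123 in the cKO, with *Mobp* lowest (2959 and 719 FPKM) and *Aspa* nearest to the control (46.5 and 36.3 FPKM). Endothelial markers, of the other cells that make MCT1, summed to 162 FPKM and 130 FPKM, with 1 of 7 past the fold upwards (*Cdh5*, log2 ratio 0.59) and 2 downwards (lowest *Slco1c1*, −0.83). With all rows rescaled, 0 of these 7 were above the control and *Cdh5* was at −0.08. Past the fold downwards were then 5 of the 7, compared with 7182 of 13208 tested genes. The part of either in the *Slc16a1* value was not tested. In whole nerve, fewer cells of a type and less RNA per cell cannot be told apart.

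**Figure D2:**
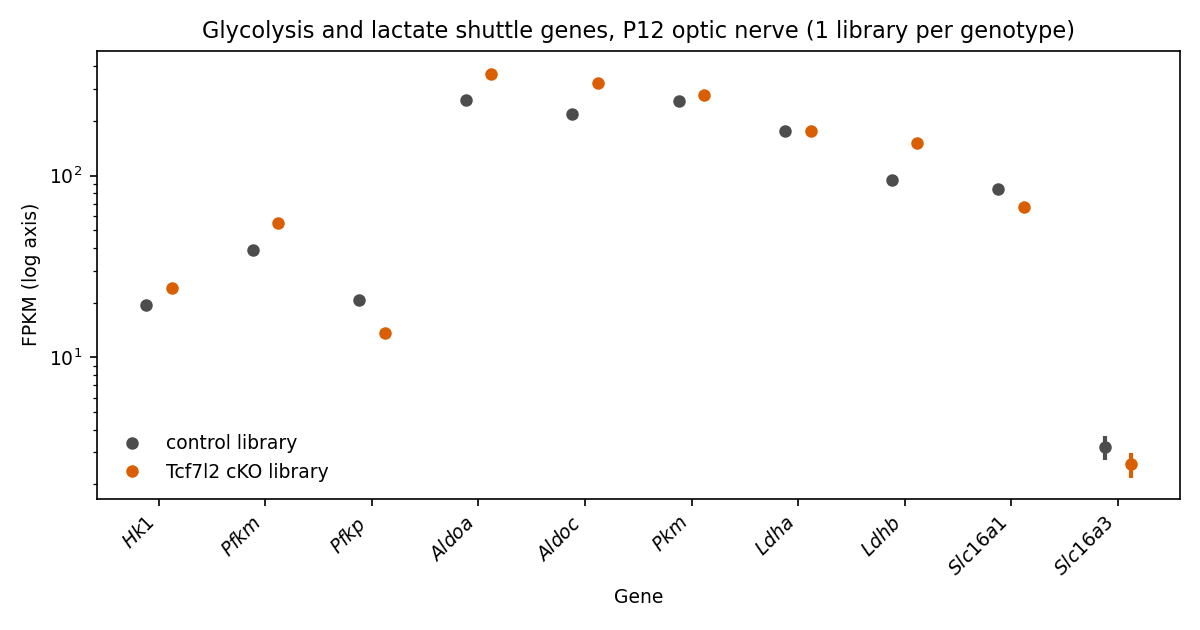
FPKM (y axis, log scale) of the 10 genes (x axis) in the control library (grey) and the cKO library (orange), where each point is 1 library and the bars, mostly hidden by the points, are Cufflinks intervals. Levels run from 3.19 to 260 FPKM in the control and from 2.57 to 365 FPKM in the cKO, and *Ldha* sits at 177 and 176 FPKM.

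The order of the 10 genes by level was nearly kept. In the control it was *Aldoa*, *Pkm*, *Aldoc*, *Ldha*, *Ldhb*, *Slc16a1*, *Pfkm*, *Pfkp*, *Hk1* and *Slc16a3*, and the neighbours *Aldoa* and *Pkm*, and *Pfkp* and *Hk1*, did not differ beyond their intervals. In the cKO, *Aldoc* stood above *Pkm* and *Hk1* above *Pfkp*, and no neighbours had overlapping intervals. The levels of the 10 genes summed to 1175 FPKM in the control and 1459 in the cKO.

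Over the 10 genes, 2 were past a fold of 1.5 (20%), *Ldhb* higher and *Pfkp* lower, compared with 23.9% of the 14199 genes tested, those with at least 1 FPKM in either library. All 10 genes passed this filter. The share is close to that of all genes, of which 15.4% were past the fold upwards and 8.52% downwards. Intervals did not overlap in 8 of the 10 genes, compared with 52.4% of all genes. Relative to the value, intervals were narrower at high levels, with a control half-width of 3.01% for *Aldoa* and 15.1% for *Slc16a3*. The genes behind the 52.4% were not matched to the 10 genes in level. The median log2 ratio of the 10 genes was 0.21, with 6 above 0 and 4 below, and these directions held under every scaling tried except the rescaling of all rows to a common sum, where the median was −0.46 and *Ldhb* alone was above 0, at 0.01. Relative to the median of all genes, 6 of the 10 genes were above it both before and after that rescaling.

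**Figure D3:**
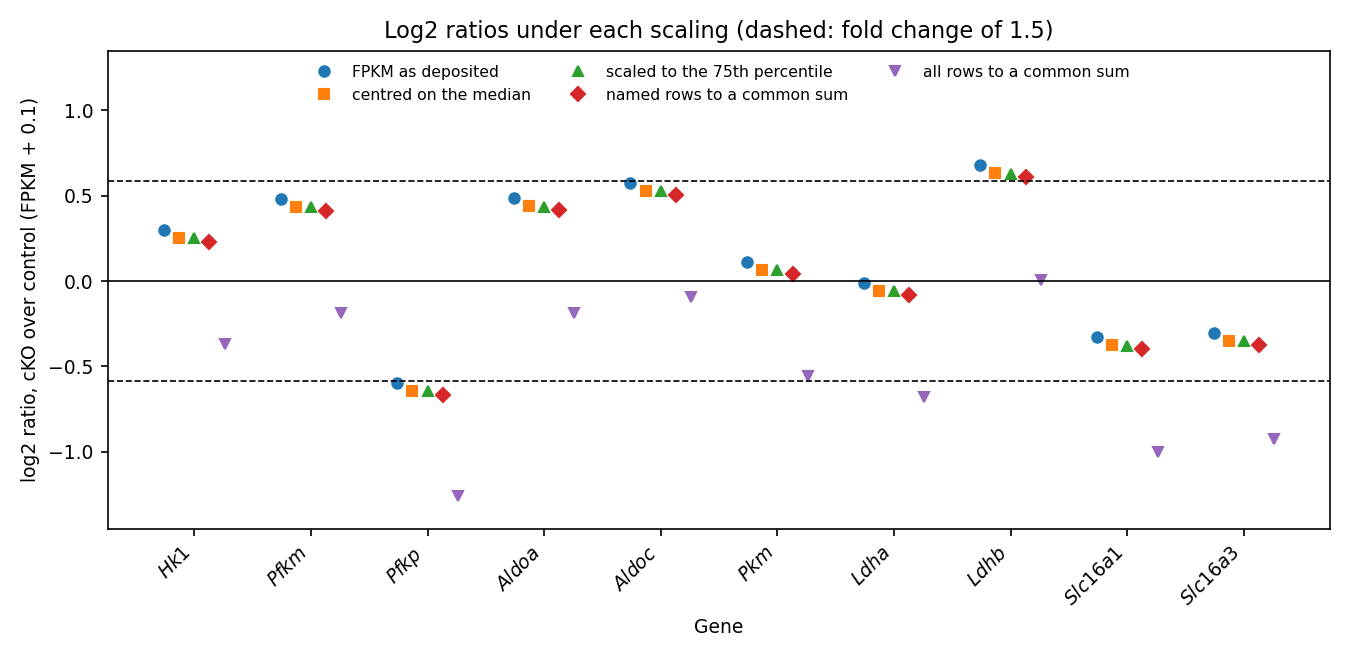
Log2 ratio of cKO to control on FPKM plus 0.1 (y axis) for the 10 genes (x axis) under the deposited FPKM and 4 other scalings (symbols), with dashed lines at a fold of 1.5. *Ldhb* is at 0.68 and *Pfkp* at −0.60 as deposited, and rescaling all rows to a common sum moves each gene down, to 0.01 and −1.26 for these genes.

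The rest of the pathway was taken from a list of 41 genes, of which 37 passed the filter. Past the fold were 5 upwards and 2 downwards (18.9%), again close to the 23.9% of all genes, and the median log2 ratio was 0.05. Of the 5, *Pgam2* and *Pfkfb1* passed the filter through the cKO only, and with at least 1 FPKM required in both libraries 3 were past the fold upwards and 2 downwards of 34. The main glucose transporter, *Slc2a1*, had 45.9 FPKM and 45.4 FPKM with overlapping intervals (−0.02, and −0.68 with all rows rescaled). The insulin-responsive transporter *Slc2a4* was past the fold at a low level, with 2.18 FPKM and 3.65 FPKM (0.71, and 0.06 with all rows rescaled). Among the other enzymes, *Gapdh* was the highest, with 441 FPKM in the control and 567 in the cKO (log2 ratio 0.36). It was at −0.31 with all rows rescaled, and its many pseudogenes could share its reads. The muscle enolase *Eno3* was lower in the cKO, with 8.15 FPKM and 4.97 FPKM (−0.70). Its row began at 70469627 on chromosome 11 in the control and at 70469939 in the cKO, with 3 and 2 unnamed rows beside it that reached 3.51 FPKM and 7.79 FPKM, so this difference is uncertain. The muscle mutase *Pgam2* was listed at 0 in the control and at 2.81 FPKM in the cKO, where its row had other ends and overlapped *Dbnl*, so no fold is given.

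Fructose 2,6-bisphosphate is the main activator of phosphofructokinase and is made and broken by the Pfkfb enzymes. *Pfkfb4* had 11.1 FPKM in the control and 6.42 in the cKO (−0.78, and −1.43 with all rows rescaled). *Pfkfb1* had 0.535 FPKM and 1.22 FPKM, so it passed the filter through the cKO only. *Pfkfb3*, with 10.9 FPKM and 10.1 FPKM (−0.10, and −0.76 with all rows rescaled), had overlapping intervals.

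*Bsg* encodes basigin, the chaperone that brings MCT1 and MCT4 to the membrane. It was the highest gene of lactate transport, with 480 FPKM in the control and 393 in the cKO (−0.29), and its ratio to *Slc16a1* was 5.65 and 5.81. *Slc16a8*, the transporter MCT3 known from the retinal pigment epithelium, had 5.39 FPKM in the control and 14.4 in the cKO (1.40). Its share of the 4 monocarboxylate transporters was 5.58% (4.86% to 6.44%) and 16.6% (15.5% to 17.6%), and that of *Slc16a1* was 87.9% (81.0% to 89.3%) and 77.7% (76.1% to 79.4%). The *Slc16a8* row ended at 79086541 on chromosome 15 in the control, with an unnamed row of 228 bases and 11.6 FPKM beside it, and at 79087100 in the cKO, and it overlaps *Pick1*, so this difference is uncertain. Of 4 retina markers, *Rbpms*, known from retinal ganglion cells, passed the filter, with 3.97 FPKM and 8.90 FPKM. The photoreceptor markers *Sag* (0.280 and 0.0827 FPKM) and *Pde6b* (0.0277 FPKM in the control and listed at 0 in the cKO) were low in both libraries.

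Of 13 carrier, dehydrogenase and regulator genes for the entry of pyruvate into mitochondria, 1 was past the fold as deposited, compared with 23.9% of all tested genes. It was the dehydrogenase kinase *Pdk4*, with 2.19 FPKM and 3.34 FPKM (0.59, at the cutoff, and −0.06 with all rows rescaled). The carrier *Mpc1*, the highest of the 13 genes, had 114 FPKM and 120 FPKM (0.07, and −0.60 with all rows rescaled). With all rows rescaled, all 13 were below the control and 9 were past the fold downwards, compared with 7182 of 13208 tested genes. Their median was then −0.64, beside −0.63 for all tested genes.

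**Figure D4:**
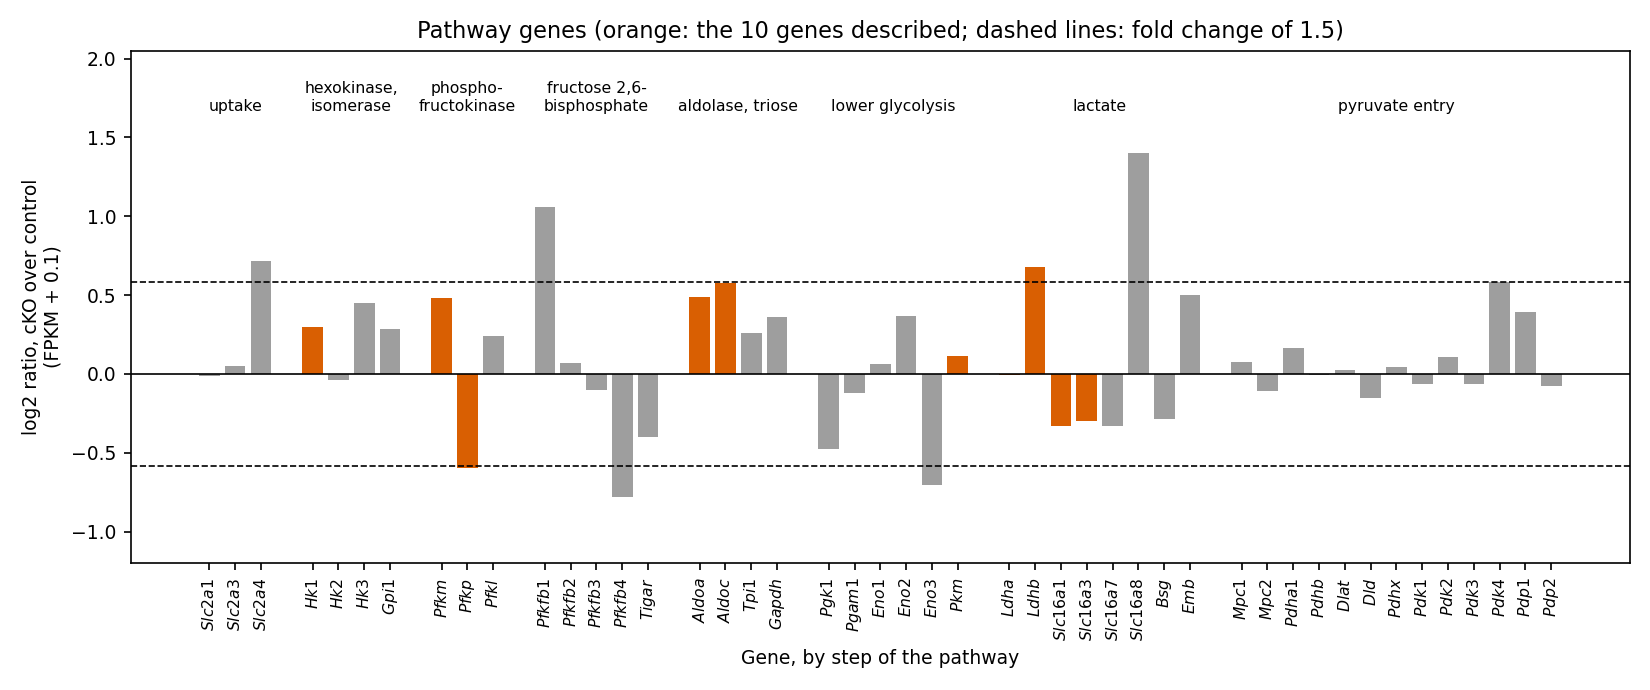
Log2 ratio of cKO to control on FPKM plus 0.1 (y axis) for the 10 genes (orange) and the other tested pathway genes (grey), by step of the pathway (x axis), with dashed lines at a fold of 1.5; *Pgam2*, listed at 0 in the control, is left out. Bars past the lines include *Ldhb* at 0.68, *Pfkp* at −0.60, *Slc16a8* at 1.40 and *Pfkfb4* at −0.78, and rescaling all rows to a common sum lowers *Ldhb* to 0.01.

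Marker lists of the other cell types of the nerve moved as follows, and their part in the values of the 10 genes was not tested. Of all tested genes, 15.4% were past the fold upwards and 8.52% downwards. With all rows rescaled, markers above the control were 1 of 7 for astrocytes, 0 of 8 for microglia, 0 of 4 for pericytes, 1 of 5 for fibroblasts, 4 of 6 for neurons, 0 of 3 for muscle and 5 of 5 for red blood cells, *Hba-a1* and *Hba-a2* being 1 merged row. The median log2 ratio of all tested genes was −0.63 under that rescaling. As deposited, oligodendrocyte precursor markers were below the control in 5 of 5 genes, compared with 45.4% of all tested genes. Their sums were 340 FPKM and 240 FPKM, of which *Gpr17* alone made up 235 FPKM and 156 FPKM. These markers ran from *Neu4* (−1.02) to *Pdgfra* (−0.09), with 2 past the fold (*Neu4* and *Gpr17*). *Pdgfra* is a merged row with overlapping intervals and a cKO half-width of 192% of its FPKM, so its direction is uncertain. The study reports comparable numbers of PDGFRα-positive precursors in cortex and spinal cord, and their number in these nerves was not tested. Astrocyte markers, of the cells known for *Aldoc* and *Slc16a3*, summed to 4919 FPKM and 5754 FPKM, with 1 of 7 past the fold (*Gja1*, 0.68) and *Aqp4* at −0.29. Among microglial markers 0 of 8 were past the fold, with sums of 264 FPKM and 304 FPKM and log2 ratios from −0.41 (*Aif1*) to 0.51 (*Tmem119*). Pericyte markers ran from *Rgs5* (−0.64) to *Kcnj8* (0.35), with 1 of 4 past the fold and sums of 101 FPKM and 86.2 FPKM. Fibroblast markers ran from *Col3a1* (0.09) to *Dcn* (0.78), with 1 of 5 past the fold and sums of 1046 FPKM and 1376 FPKM.

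Neuronal markers were low, with sums of 39.0 FPKM and 57.6 FPKM. As deposited, 4 of the 6 tested were past the fold upwards, compared with 15.4% of all tested genes. Of the 4, *Rbfox3* passed the filter through the cKO only. With all rows rescaled, 1 of the 6 was past the fold upwards and 1 downwards, compared with 485 and 7182 of 13208 tested genes, respectively. *Syt1* had the highest ratio (1.07 and 3.64 FPKM) and *Nefm* the lowest (5.46 and 4.2 FPKM). Skeletal muscle markers summed to 16.4 FPKM and 19.6 FPKM, of which *Acta1* made up 10.5 FPKM and 12.4 FPKM. Creatine kinase *Ckm* had 0.458 FPKM and 0.331 FPKM. Of the 3 muscle markers tested, *Tnnt3* was highest at 0.61 and *Mylpf* lowest at 0.01. All 5 listed red blood cell genes were past the fold upwards as deposited, and 2 of the 5 with all rows rescaled. However, *Hba-a1* and *Hba-a2* are 1 merged row (1.36, with 88.7 FPKM and 228 FPKM). *Alas2* (1.08, with 0.607 FPKM and 1.39 FPKM) passed the filter through the cKO only. The haemoglobin copies share reads.

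**Figure D5:**
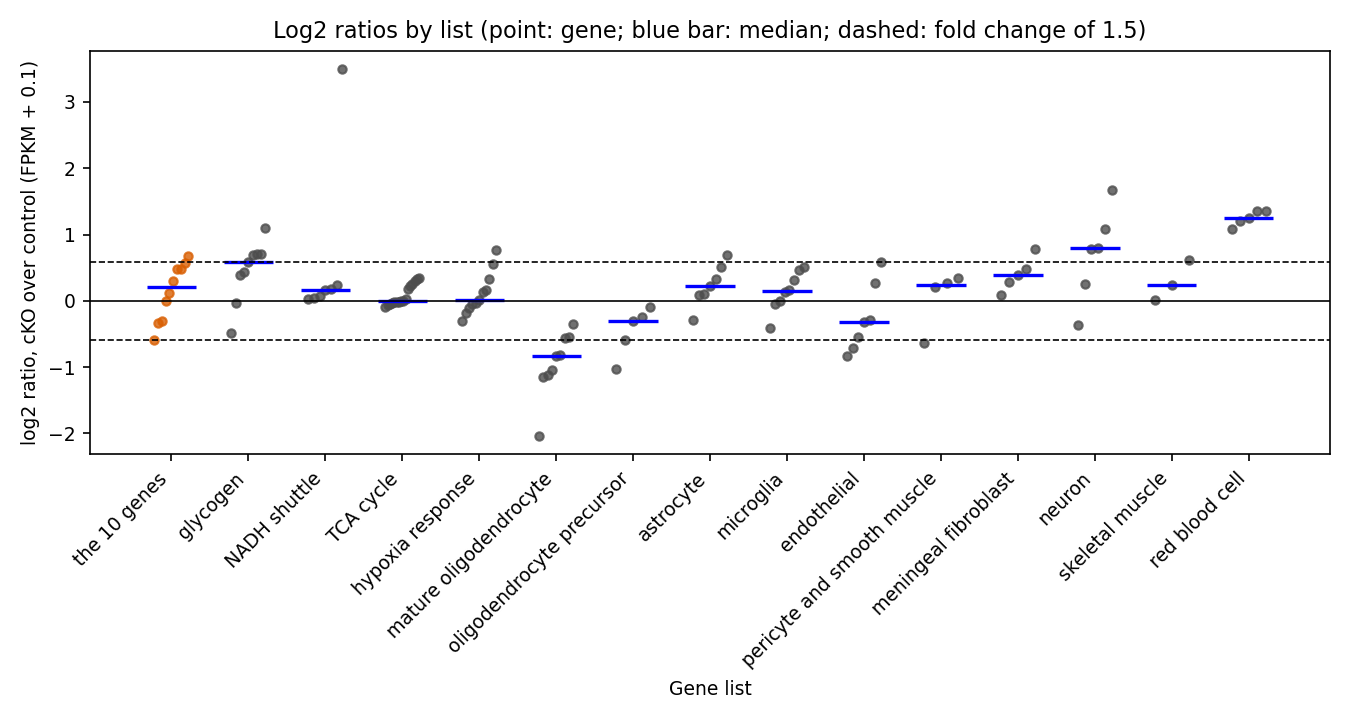
Log2 ratio of cKO to control on FPKM plus 0.1 (y axis) for each tested gene (points) of the 10 genes (orange) and of the other lists (grey, x axis), with the median of each list as a blue bar and dashed lines at a fold of 1.5. The 10 genes spread from −0.60 to 0.68, all 9 mature oligodendrocyte markers lie below 0, and a single NADH shuttle gene, *Gpd1*, stands at 3.50; rescaling all rows to a common sum moves the median of the 10 genes from 0.21 to −0.46.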

How the data were processed

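The authors mapped RNA-seq reads with TopHat and computed FPKM with Cufflinks on mm9, per the labels and the submitters' processing notes. Versions and annotation are not given in the sources used here. The deposited FPKM tables give 1 row per assembled or annotated gene, with interval bounds. Names merged in 1 row were split, rows were summed per symbol, and symbols of status OK in both libraries with an FPKM of at least 1 in either were tested (14199). Positions count from 1. Depth was read from interval bounds of unnamed rows under 100 bases, which were whole multiples of 1 fragment within 0.01. With 1 library per genotype, no test was made. Genes, lists and alternatives were chosen with earlier results of these data known. Named were all 10 genes, *Tcf7l2*, listed genes past the fold, the highest gene of each pathway step and the extremes of each marker list. A few genes covered by this rule or the lists are not reported here. The retrocopies, *Pfkl*, the overlapping genes and other markers were named after their values were seen. Counting was tested on simulated data. Alternatives were other pseudocounts, filters, scalings, cutoffs and treatments of rows. Python 3.11.15, numpy 2.4.6, pandas 2.3.3 and matplotlib 3.10.9 were used.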

Additional observations from a re-analysis of the deposited data

Results flagged for a closer look

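Inside the *Pfkp* locus, rows without a gene name were more numerous in the cKO, where 8 were listed, than in the control, where 2 were listed. These rows lie outside the gene values compared above. The control rows were 954 and 7861 bases long. Their FPKM values were 5.41 and 7.90, not matched here to the lengths, and their highest upper interval bound was 4107 FPKM. The cKO rows were 75 to 821 bases long, with 2.15 to 706 FPKM, and in 7 of the 8 the FPKM exceeded the upper bound of its own interval. The named *Pfkp* row had the same ends in both libraries. Of the other 9 genes, *Hk1* had 1 such row in the control, and the rest had 0 in either library.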

How the results depend on the processing

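With 2 past a fold of 1.5 as reported, the count among the 10 genes was 1 with a pseudocount of 1, 0 past a fold of 2 and 4 with all rows rescaled to a sum of 1000000. For the other pathway genes the count of 7 of 37 became 4 of 37 with a pseudocount of 1 and 3 of 37 past a fold of 2. With at least 5 FPKM in either library it became 3 of 27, and with all rows rescaled 24 of 35. Over all tested genes, 3395 of 14199 became 2179 of 10535 with at least 5 FPKM and 1497 of 14199 past a fold of 2. With all rows rescaled it became 7667 of 13208, which lowered the higher share of calls from 64.4% to 6.33%. The median of the 10 genes, 0.21, was −0.46 under that rescaling. The remaining alternatives, 11 of 14 for the 10 genes, 10 of 14 for the pathway, 11 of 14 for all genes and 11 of 12 for the median, left each count within 1.5 times and the sign of the median as it was. No paired analysis was possible because there was 1 library per genotype. For the same reason no replicate could be left out. Depth limits *Slc16a3* most among the 10 genes, with an interval half-width of 15.1% of its FPKM in the control and 15.9% in the cKO.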

Other observations

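*Gpd1*, the cytosolic glycerol 3-phosphate dehydrogenase that uses NADH from glycolysis, had 16.0 FPKM in the control and 182 in the cKO, a log2 ratio of 3.50, and 2.82 with all rows rescaled to a common sum. Of the tested genes, 1.34% had a higher ratio. Its row (mm9 chromosome 15, 99548024 to 99555438) had the same ends in both libraries and overlapped no other row. The mitochondrial partner *Gpd2* had 12.2 FPKM and 12.9 FPKM, so the ratio of *Gpd1* to *Gpd2* was 1.31 in the control and 14.1 in the cKO. The other 6 tested genes of the NADH shuttles had log2 ratios from 0.02 to 0.24. With all rows rescaled, all of them were below 0, and the median of all tested genes was −0.63.

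Of 9 genes of glycogen turnover, 5 were past a fold of 1.5 upwards and 0 downwards (55.6%, compared with 23.9% of all tested genes in either direction and 15.4% upwards). The glycogen phosphorylases, which release glucose 1-phosphate, were among them: *Pygb*, the brain form, had 83.3 FPKM and 135 FPKM (log2 ratio 0.70), *Pygm*, the muscle form, had 8.85 FPKM and 19.0 FPKM (1.09), and *Pygl*, the liver form, had 1.36 FPKM and 2.27 FPKM (0.70). The phosphoglucomutase listed as *Pgm2* (mm9 chromosome 4, 99602056 to 99659899) had 16.3 FPKM and 24.6 FPKM (0.59, at the cutoff, and −0.08 with all rows rescaled). *Ugp2*, which makes UDP-glucose for glycogen synthesis, had 32.4 FPKM and 23.2 FPKM (−0.48). With all rows rescaled, 0 of the 9 genes were past the fold upwards, compared with 485 of 13208 tested genes. Of the 9, 4 were then above 0 and 5 below, with *Pygm* at 0.43 and *Pygb* at 0.03. Under the other scalings tried, 4 of the 9 were past the fold upwards, and *Pgm2* fell short of it. The list was chosen with earlier results of these data known.

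Of 16 genes of the TCA cycle, 0 were past the fold as deposited, compared with 23.9% of all tested genes. Their log2 ratios ran from −0.09 to 0.35, with a median of −0.01. Of 11 tested genes of the hypoxia response, *Adm* alone was past it, with 4.37 FPKM and 7.5 FPKM (0.77), and the median was 0.01. With all rows rescaled, 10 of the 16 and 6 of the 11 were past the fold downwards, compared with 7182 of 13208 tested genes. The medians were then −0.67 and −0.66.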
